A study of Mus musculus with 18 samples.

Results

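Il10, Tnfsf11 and Irs4 are 3 genes whose transcripts were at their highest in mouse gastruloids before Wnt stimulation and lower after it. They are 3 of the 55385 genes in the count table, and all 3 were among the 16041 genes that passed the filter on low counts. They were chosen by their measured falls with a Wnt pulse. The comparisons behind the choice were not named. It was taken to rest on the libraries of 48 h of both arms and the control libraries of 72 h. Their falls across those groups are therefore given as descriptions, without tests.

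Il10 encodes interleukin-10, a secreted cytokine that dampens inflammation. It binds a receptor made of the IL-10RA and IL-10RB chains, and signals through the kinases JAK1 and TYK2 to the transcription factor STAT3. Tnfsf11 encodes RANKL, a TNF-family ligand that drives osteoclast formation. RANKL binds RANK (Tnfrsf11a), is trapped by the decoy receptor osteoprotegerin (Tnfrsf11b), and can also bind LGR4, which is better known as a receptor for R-spondins in Wnt signalling. Irs4 encodes an insulin receptor substrate, an adaptor that insulin and IGF-1 receptors phosphorylate and that recruits PI3 kinase. Immune cells are the usual source of IL-10, and bone, stromal and lymphoid cells of RANKL.

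Gastruloids are embryonic stem cell aggregates that model germ layer formation and axis elongation in vitro. All were wild type (WT) of the strain 129/SVEV, and PolyA RNA was sequenced from gastruloids pooled within a condition. Early gastruloids received CHIR, a GSK3 inhibitor that activates Wnt/β-catenin signalling, from 24 to 48 h after aggregation. Control gastruloids received it from 48 to 72 h, so those collected at 48 h were untreated. Each arm was collected at 48, 72 and 96 h with 3 libraries per group, 18 in all. The early arm has no library from before its pulse. In the control arm, the pulse and a day of age cannot be told apart. Nothing in the labels ties the 3 libraries of a group to separate cultures. The labels name a pair of library preparation codes without saying which libraries belong to each, so preparation could not be entered in a fit. The p-values thus reflect variation among these libraries, which may be technical.

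Total counts were 14841728 to 24536538 per library. Axin2, a feedback gene of Wnt signalling, was at 120.1 ± 4.09 CPM (counts scaled to library size) in early libraries of 48 h and 215 ± 18.7 CPM in control libraries of 72 h, against 12.7 ± 0.907 CPM in untreated libraries of 48 h (SD, n = 3 each). Control replicate 3 stood apart at every age: a chi-square comparison of replicate counts gave 15.4 to 28.1 per degree of freedom in pairs that held it and 1.41 to 7.90 in the other pairs. Results that involve control libraries were also computed without the 3 control libraries numbered 3. In these bulk libraries, fewer cells that express a gene and less RNA per cell cannot be told apart.

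Il10 (ENSMUSG00000016529.5) lies at chr1:131019845-131024974 on the plus strand of mm10, with 1 annotated transcript of 5 exons and 1310 exonic bases. Tnfsf11 (ENSMUSG00000022015.8) lies at chr14:78277445-78308043 on the minus strand, with 5 exons and 2236 exonic bases. Irs4 (ENSMUSG00000054667.7) lies at chrX:141710998-141725263 on the minus strand, with 2 exons and 6294 exonic bases. The antisense gene Gm15295 overlaps the start of Irs4 and held 37 counts over all 18 libraries. The strand setting of the counting is not given in the sources used here.

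Promoter sequences from RefSeq (GRCm38.p6) were matched for 2 of the 3 genes, Tnfsf11 and Irs4. They are shown because both genes fell with a Wnt pulse, and TCF/LEF factors, which carry the Wnt signal to DNA, bind a core of letters CTTTG. Each line runs 5′ to 3′ on the strand of the gene and ends at the base before the start annotated in GENCODE. Capitals mark CTTTG on either strand (read as CAAAG on the other) and TATAA on either strand. The first covers chr14:78308044-78308293 and the second chrX:141725264-141725467, both on the minus strand.
Tnfsf11: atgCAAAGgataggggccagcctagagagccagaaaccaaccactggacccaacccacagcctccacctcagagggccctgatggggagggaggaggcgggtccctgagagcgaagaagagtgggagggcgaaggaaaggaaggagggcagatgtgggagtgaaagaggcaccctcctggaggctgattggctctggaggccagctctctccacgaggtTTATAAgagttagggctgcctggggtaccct
Irs4: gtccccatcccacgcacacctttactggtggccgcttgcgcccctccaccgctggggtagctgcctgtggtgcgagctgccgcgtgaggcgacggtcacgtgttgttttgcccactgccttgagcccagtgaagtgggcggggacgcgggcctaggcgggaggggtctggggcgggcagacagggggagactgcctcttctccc

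The Tnfsf11 window of 250 bases held CTTTG once, 247 bases before the start, on the opposite strand. CTTTG on either strand was present in 48.6% of 32851 promoter windows of that length. The longer form CTTTGA was absent from the Tnfsf11 window on both strands, and 13.8% of these windows held it. A TATAA run, read on both strands in overlap, began 31 and 30 bases before the start of Tnfsf11, and 22.8% of windows held one. The Irs4 window had 204 bases, since the part of its 250-base RefSeq window inside the GENCODE gene was left out. It held neither CTTTG nor TATAA. These were present in 42.9% and 18.2% of windows over the 204 bases farthest from their own RefSeq start. The bases nearest the RefSeq start were thus searched neither in Irs4 nor for these shares. The Irs4 window held the E-box CACGTG 108 bases before the GENCODE start, and 4.45% of windows held it somewhere in those 204 bases. Guanine and cytosine made up 60.4% of the Tnfsf11 window and 69.1% of the Irs4 window, against a median of 52.4% over 250-base windows. These letters are descriptions of the windows and show no binding.

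Il10 had 18, 21 and 22 counts in early libraries of 48 h, against 197, 229 and 185 in control libraries of 48 h. In CPM these were 0.870, 1.29 and 1.26 in early libraries, against 10.03, 11.3 and 11.9 in controls. At 72 h its level was 1.14, 1.55 and 1.31 CPM in early libraries, against 0.426, 0.209 and 0.195 CPM in controls. The untreated controls were thus far above every other library, and at 72 h all 3 early libraries were above all 3 controls. By 96 h Il10 was at 0.718, 0.568 and 0.809 CPM in early libraries. The control libraries of 96 h held 1, 0 and 0 counts, or 0.0406 CPM in the first. Early libraries therefore kept measurable Il10 RNA at 96 h, and controls had 1 read among 3 libraries.

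Tnfsf11 had 54, 47 and 40 counts in early libraries of 48 h, against 271, 243 and 165 in control libraries of 48 h. These counts were 2.61, 2.89 and 2.29 CPM in early libraries, against 13.8, 12.0 and 10.6 CPM in controls. At 72 h it was at 3.67, 3.71 and 3.70 CPM in early libraries, against 0.533, 0.313 and 0.325 CPM in controls. Groups did not overlap at either age, with controls higher at 48 h and lower at 72 h. At 96 h it was at 2.27, 1.94 and 1.44 CPM in early libraries, against 0.406, 0.380 and 0.748 CPM in controls. Every early library of 96 h remained above every control library of that age.

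Irs4 was the most abundant of the 3 by counts, with 123, 93 and 80 in early libraries of 48 h, against 1721, 1654 and 1122 in control libraries of 48 h. In CPM it was at 5.95, 5.71 and 4.58 in early libraries, against 87.6, 81.8 and 71.9 in controls. At 72 h it was at 14.0, 15.0 and 16.03 CPM in early libraries, against 5.01, 4.90 and 4.55 CPM in controls. Early libraries of 72 h were thus above early libraries of 48 h. At 96 h its level was 10.8, 10.2 and 8.49 CPM in early libraries, against 1.71, 1.63 and 2.18 CPM in controls. Again no early library overlapped a control library of the same age. The share of all genes whose groups were separate was not computed, so such separation is not shown to be particular to these 3 genes.

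**Figure D1:**
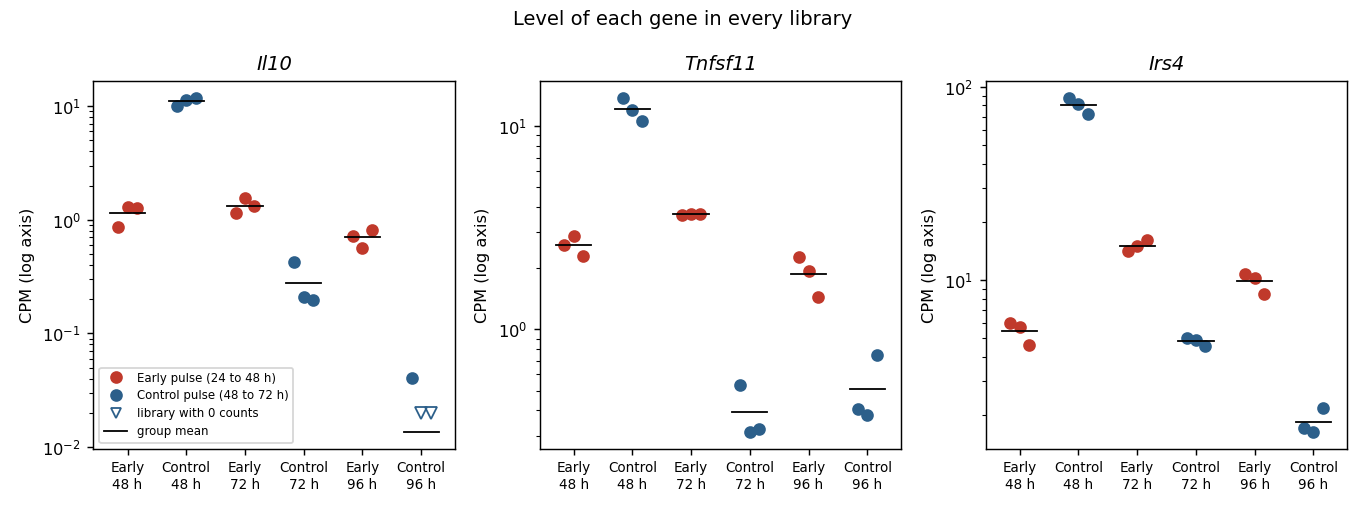
Level of Il10, Tnfsf11 and Irs4 in CPM (log axis) in each of 18 libraries, with early groups in red to the left of control groups of the same age in blue. Dots are libraries, lines are group means, and open triangles are libraries with 0 counts, drawn at a fixed height. The untreated controls of 48 h are highest for each gene, and at 72 and 96 h every early library lies above every control library.

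FPKM values are scaled by gene length as well as library size and allow the genes to be set beside each other. In untreated control libraries of 48 h, Irs4 was at 9.94 ± 0.844 FPKM, Il10 at 6.06 ± 0.481 FPKM and Tnfsf11 at 4.13 ± 0.541 FPKM (SD, n = 3 each). In early libraries of 48 h the same 3 genes were at 0.646 ± 0.0828, 0.635 ± 0.140 and 0.844 ± 0.0929 FPKM. After the early pulse, the 3 levels per length were thus close to each other. The deposited FPKM table lists some genes with reads at exactly 0: of 16041 tested genes, 1590 were at 0 in at least 1 library in which they had 10 or more counts, among them Tyk2, Cebpb and Ikbkg. This touched 0 of the listed TNF ligands and insulin receptor substrates in any library, and 0 of the listed interleukins in untreated controls, and these lists are ranked per length further on.

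For Il10 the group means ran, from high to low, control 48 h, early 72 h, early 48 h, early 96 h, control 72 h and control 96 h, and the libraries of neighbours in this order overlapped between early 72 h and early 48 h. For Tnfsf11 the order was control 48 h, early 72 h, early 48 h, early 96 h, control 96 h and control 72 h, with overlap between the last 2 groups. For Irs4 it was control 48 h, early 72 h, early 96 h, early 48 h, control 72 h and control 96 h, with overlap between early 48 h and control 72 h. All 3 genes thus shared the highest and second highest groups. Il10 and Tnfsf11 differed in the order of the control groups of 72 and 96 h, and for Irs4 the early group of 48 h ranked below that of 96 h.

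At the end of the early pulse, compared with untreated gastruloids of the same age, Il10 stood at 10.3% of the control mean, Tnfsf11 at 21.4% and Irs4 at 6.72%. The log2 fold changes were -3.29 ± 0.20 for Il10, -2.23 ± 0.17 for Tnfsf11 and -3.89 ± 0.11 for Irs4 (± SE). Of all genes tested, 43.7% were called in this comparison at an adjusted p under 0.05 and 20.7% were called lower, with 23% called higher. Over all 16041 tested genes, Irs4 had the 12th largest fall, Il10 the 35th and Tnfsf11 the 166th. Among 10344 genes with at least 5 CPM in the untreated controls, these ranks were 2nd, 8th and 57th. Both sets of ranks restate the choice of the genes, which was by their falls. Without the 3 control libraries numbered 3 the log2 fold changes were -3.25 for Il10, -2.32 for Tnfsf11 and -3.97 for Irs4. Just beside Tnfsf11 in the order of all tested genes were Chst3 at -2.23 and Elavl3 at -2.22. Just beside Il10 were Pla2r1 at -3.29 and Scgn at -3.28. Irs4 lay between Btbd17 at -4.11 and Asic4 at -3.87, the last from under 0.1 CPM in the controls.

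At the end of the control pulse, compared with untreated gastruloids a day younger, Il10 stood at 2.50% of its mean of 48 h, Tnfsf11 at 3.22% and Irs4 at 5.99%. The log2 fold changes were -5.27 ± 0.25 for Il10, -4.93 ± 0.23 for Tnfsf11 and -4.06 ± 0.12 for Irs4 (± SE). Here 61.4% of genes were called and 30.3% were called lower, with 31.1% called higher. Over all 16041 tested genes, Il10 had the 17th largest fall, Tnfsf11 the 27th and Irs4 the 71st. Among the genes with at least 5 CPM in the untreated controls, these ranks were 2nd, 3rd and 13th. These ranks too restate the choice. Without the 3 control libraries numbered 3 the changes were -5.06 for Il10, -4.92 for Tnfsf11 and -4.10 for Irs4. Beside Il10 in the order of all tested genes were Gucy2c at -5.37 and Gm21985 at -5.22. Beside Tnfsf11 were Podnl1 at -4.95 and Il20ra at -4.86, and beside Irs4 were 1500004A13Rik at -4.07 and Capn12 at -4.04. The 2 pulse comparisons share the untreated libraries of 48 h, and their values for the 3 genes stand here side by side without a test of the difference.

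At 72 h the early arm was a day past its pulse and the control arm at the end of its own. Il10 was higher in early libraries by 2.23 ± 0.31 on the log2 scale, Tnfsf11 by 3.21 ± 0.26 and Irs4 by 1.63 ± 0.12 (± SE, no test), or by 2.08, 3.12 and 1.61 in the same order of genes without the 3 control libraries numbered 3. Each gene in early libraries of 72 h nevertheless stayed below the untreated level, at 12.0% of it for Il10, 30.4% for Tnfsf11 and 18.7% for Irs4. Of 16041 tested genes, 7196 were called between early and control libraries of 72 h, in either direction.

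Over the day after the early pulse, from 48 to 72 h, the log2 changes were 0.25 ± 0.24 for Il10, 0.51 ± 0.19 for Tnfsf11 and 1.47 ± 0.12 for Irs4. Libraries of the 2 ages overlapped for Il10 and were separate for Tnfsf11 and Irs4. Of 16041 tested genes, 6837 were called over this step, in either direction, and 8802 over the day after the control pulse. Over the day after the control pulse, from 72 to 96 h, Irs4 changed by -1.41 ± 0.16 and Tnfsf11 by 0.33 ± 0.36, or -0.09 without the 3 control libraries numbered 3. Il10 had 1 count in control libraries of 96 h against 15 in those of 72 h, a ratio of 0.0602 after scaling, with an exact 95% interval of 0.00143 to 0.391 that covers counting error only. Irs4 was thus higher a day after the early pulse and lower a day after the control pulse, a pattern given here without a test.

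The remaining comparisons use groups outside the pulse comparisons by which the genes were taken to be chosen. They were tested with edgeR's quasi-likelihood test and Benjamini-Hochberg adjustment over 16041 genes. Each tested group follows, in its own arm, a group that entered that choice, so these tests are not fully independent of it. From 72 to 96 h in the early arm all 3 genes fell. At 96 h the levels were 0.698 ± 0.121 CPM for Il10, 1.88 ± 0.414 for Tnfsf11 and 9.83 ± 1.19 for Irs4, against 1.33 ± 0.204, 3.69 ± 0.0185 and 15.0 ± 0.996 CPM at 72 h (SD, n = 3 each). The log2 fold change was -0.95 ± 0.26 for Il10 (adjusted p = 0.00846), -0.96 ± 0.19 for Tnfsf11 (adjusted p = 0.000862) and -0.61 ± 0.11 for Irs4 (adjusted p = 0.000332). For each gene, all 3 libraries of 96 h were below all 3 of 72 h. Of all genes 35.3% were called in this comparison, with 17.6% lower and 17.6% higher. Without early replicate 2 of 72 h the call of Il10 was lost (adjusted p = 0.051, log2 fold change -0.81).

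At 96 h the early arm held more of each transcript than the control arm. Tnfsf11 was at 1.88 ± 0.414 CPM in early libraries, against 0.512 ± 0.205 CPM in controls (SD, n = 3 each), 3.78-fold higher (log2 fold change 1.92 ± 0.26, adjusted p = 5.4e-06). Irs4 was at 9.83 ± 1.19 CPM in early libraries, against 1.84 ± 0.300 CPM in controls, 5.402-fold higher (log2 fold change 2.43 ± 0.15, adjusted p = 1.17e-10). Il10 had 39 counts in the early libraries against 1 in the controls, a scaled ratio of 40.7 with an exact 95% counting interval of 6.90 to 1650, and edgeR's adjusted p was 1.28e-06. Without control replicate 1, which held that count, Il10 was at least 7.92-fold higher, against 3 counts over the group. Leaving out another library gave ratios of 28.0 to 45.0. Without the 3 control libraries numbered 3, the log2 fold change was 2.25 for Tnfsf11 (adjusted p = 6.27e-07) and 2.56 for Irs4 (adjusted p = 2.79e-13), and Il10 was also called (adjusted p = 6.74e-06). The early libraries were higher in 3 of 3 for every gene, while 59.1% of all genes were called in this comparison, 29.5% higher and 29.6% lower.

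A comparison of both arms a day after their pulses, early at 72 h with control at 96 h, was added after the data were seen, and it shares the control libraries of 96 h with the comparison above. Tnfsf11 was 7.38-fold higher in early libraries (log2 fold change 2.88 ± 0.24, adjusted p = 4.9e-09) and Irs4 8.23-fold higher (3.04 ± 0.14, adjusted p = 1.27e-12). Il10 had 83 counts against 1, a scaled ratio of 79.7 with a counting interval of 13.9 to 3186 (adjusted p = 9.65e-09), or at least 15.5-fold without control replicate 1. Tnfsf11 and Irs4 were higher by 3.21 and 3.16 on the log2 scale without the 3 control libraries numbered 3. In this comparison 69.7% of all genes were called, 34.3% higher and 35.4% lower. The groups differ in age by a day.

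**Figure D2:**
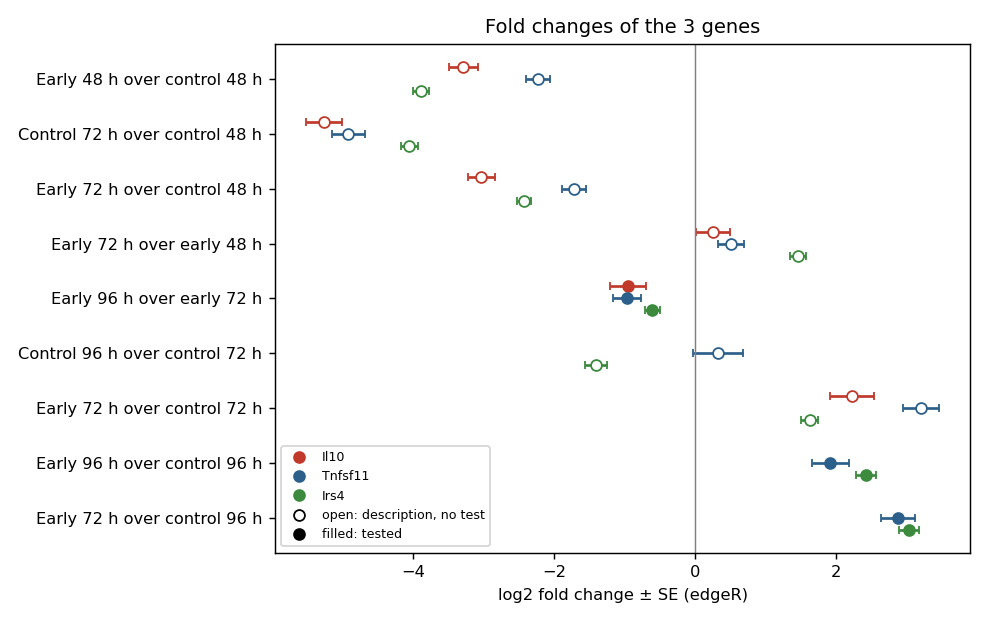
Log2 fold change ± SE from edgeR of Il10 (red), Tnfsf11 (blue) and Irs4 (green) in 9 comparisons, first group over second. Open points are descriptions without a test and filled points were tested. Il10 is not drawn against control libraries of 96 h, which held 1 count in all. Values lie left of 0 against untreated controls and right of 0 for early against control libraries of 72 and 96 h.

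Genes that receive and pass on the IL-10 signal moved in both directions. Il10ra, the ligand-binding chain, had a mean of 0.0556 ± 0.00666 CPM in early libraries of 48 h against 0.0834 ± 0.0759 CPM in controls of that age, and it did not pass the filter. Il10rb, the shared second chain, was at 0.472 ± 0.0912 CPM in early libraries of 96 h against 3.16 ± 0.606 CPM in controls (log2 fold change -2.71 ± 0.36, adjusted p = 4.19e-06). Both receptor chains were thus scarce where Il10 was highest, and Il10rb was most abundant where Il10 was nearly absent.

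Of 11 listed genes of the IL-10 receptor and its signalling, 10 were tested. The shares of all genes against which this and the later list counts stand were 23% higher and 20.7% lower at the end of the early pulse, 31.1% and 30.3% at the end of the control pulse, and 29.5% and 29.6% in early over control libraries at 96 h. At the end of the early pulse 3 were higher and 2 lower than in untreated controls, and the median log2 fold change was 0.03, against 0.02 over all genes. At the end of the control pulse 7 were higher and 2 lower, with a median of 0.71 against 0.01 over all genes, and 6 were higher and 1 lower without the 3 control libraries numbered 3. Stat5b, a signal transducer of cytokine receptors, rose by 2.30 ± 0.14 (adjusted p = 8.54e-11) and Stat5a by 2.64 ± 0.20 (adjusted p = 2.95e-09) over the control pulse. Both were named for their low adjusted p over a pulse, and neither encodes STAT3, to which IL-10 signals. No fold changes of Stat3 or Tyk2 are given here. Socs3, a feedback inhibitor of cytokine signalling, rose with both pulses, by 1.497 ± 0.263 in early libraries (adjusted p = 0.000144) and 2.15 ± 0.25 in controls (adjusted p = 6.73e-07). Socs1, an inhibitor of the same family, fell with both pulses, to 0.971 ± 0.114 CPM in early libraries of 48 h and 0.742 ± 0.192 CPM in control libraries of 72 h, against 2.03 ± 0.497 CPM in untreated controls (log2 fold change -1.04 ± 0.35, adjusted p = 0.0234, and -1.44 ± 0.37, adjusted p = 0.00255). Its group means were highest in control libraries of 48 h and next in early libraries of 72 h, as for Il10, and it was named here after its values were seen. The early-pulse call of Socs1 was lost without control replicate 3 (adjusted p = 0.094), early replicate 1 (adjusted p = 0.0655) or early replicate 2 (adjusted p = 0.072) of 48 h. The kinase gene Jak1 fell by 0.21 with the early pulse (adjusted p = 0.00687) and rose by 0.55 ± 0.06 over the control pulse (adjusted p = 1.16e-07). At 96 h, 1 of the 10 was higher in early libraries and 6 were lower.

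The closest relatives of Il10 were silent. Il19, Il20 and Il24, which lie within 250 kb of Il10, had 0 counts in every library, as did Il22 and the other 2 listed members of that cytokine family. Among their receptors, Il20ra fell with both pulses, to 0.0674 ± 0.0730 CPM in early libraries of 48 h and 0.0533 ± 0.0923 CPM in control libraries of 72 h, against 1.79 ± 0.552 CPM in untreated controls (log2 fold change -4.51 ± 0.63, adjusted p = 1.32e-05, and -4.86 ± 0.67, adjusted p = 4.99e-06). Of 28 listed interleukins and colony factors 9 were tested, with 2 higher and 1 lower after the early pulse and 4 higher and 4 lower after the control pulse. In untreated controls the highest of them per length was Il17d at 1.58 FPKM, named here after its values were seen, against 6.06 FPKM for Il10.

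Of 12 genes known as regulators of Il10 transcription in immune cells, all were tested. The early pulse left 3 higher and 1 lower, and the control pulse 3 higher and 3 lower. Over all genes the shares were 23% higher and 20.7% lower, and 31.1% higher and 30.3% lower. Bhlhe40, a repressor of Il10 in T cells, rose by 0.66 ± 0.14 (adjusted p = 0.00114) and 1.06 ± 0.14 (adjusted p = 4.03e-06) with these pulses. At 96 h it was at 37.8 CPM in early libraries against 10.9 CPM in controls (log2 fold change 1.76 ± 0.15, adjusted p = 1.35e-08). Bhlhe40 was therefore higher both after the pulses, where Il10 was lower, and in early libraries of 96 h, where Il10 was higher.

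For RANKL, the receptor genes differed in level. Per length, Lgr4 was at 25.4 FPKM in early libraries of 48 h and 19.4 FPKM in controls of that age, Tnfrsf11a at 0.0859 and 0.283 FPKM, and the decoy receptor Tnfrsf11b at 0.00432 and 0.0106 FPKM. Of the 3 receptors for this ligand, Lgr4 alone was abundant. Its counts rose with the early pulse by 0.47 ± 0.05 (adjusted p = 1e-06) and did not pass over the control pulse (0.04 ± 0.05, adjusted p = 0.498). At 96 h Lgr4 was at 146.9 ± 0.849 CPM in early libraries against 46.6 ± 3.10 CPM in controls (log2 fold change 1.65 ± 0.06, adjusted p = 7.91e-14).

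More of the listed genes of RANK signalling rose than fell with each pulse. Of 22 listed genes 21 were tested, and 10 were higher and 1 lower at the end of the early pulse (median 0.20, against 0.02 over all genes). At the end of the control pulse 12 were higher and 0 lower (median 0.36, against 0.01 over all genes), and 0 were lower by edgeR's unadjusted p under 0.05 or by DESeq2. Nfkb1, which encodes an NF-κB subunit, rose by 0.82 ± 0.07 (adjusted p = 1.5e-08) with the early pulse and 1.25 ± 0.07 (adjusted p = 1.92e-11) over the control pulse. Tab1, an adaptor of the kinase TAK1, rose by 0.63 ± 0.10 (adjusted p = 3.62e-05) and 1.31 ± 0.09 (adjusted p = 1.1e-09). At 96 h 6 were higher and 9 lower in early libraries than in controls, and Ikbkb, a kinase that activates NF-κB, was among the lower ones (-0.94 ± 0.06, adjusted p = 2.17e-10). Without the 3 control libraries numbered 3, the early pulse left 11 higher and 2 lower, and the control pulse 11 higher and 0 lower.

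Of 17 other ligands of the TNF superfamily 3 were tested. The early pulse changed 0 of them by edgeR's test, at an unadjusted p under 0.05 or by DESeq2, and the control pulse left 2 higher and 1 lower. Tnfsf12, which encodes TWEAK, fell by 2.54 over the control pulse (adjusted p = 1.28e-05). In untreated controls Tnfsf12 was the highest of the 17 per length, at 1.64 FPKM, against 4.13 FPKM for Tnfsf11.

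The order of the insulin receptor substrates changed between groups. In early libraries of 48 h, Irs2 was highest per length at 2.58 FPKM, followed by Irs4 at 0.646, Irs1 at 0.402 and Irs3 at 0.290 FPKM. In untreated controls of that age Irs4 led at 9.94 FPKM, followed by Irs2 at 6.53, Irs1 at 0.611 and Irs3 at 0.556 FPKM. In early libraries of 96 h the levels were 5.79 FPKM for Irs2, 1.66 for Irs1, 1.31 for Irs4 and 0.331 for Irs3, against 4.87, 2.02, 0.244 and 0.0382 FPKM in controls of 96 h. Irs4 was thus the leading family member before Wnt stimulation, and Irs2 led in each of these other groups.

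Irs2, a widely expressed substrate, fell by 1.28 ± 0.16 with the early pulse on the log2 scale (adjusted p = 2.93e-06). Irs1 fell by 0.54 ± 0.14 with the early pulse (adjusted p = 0.00357) and rose by 1.07 ± 0.12 over the control pulse (adjusted p = 5.69e-07). Irs3, a rodent family member, fell by 1.38 ± 0.33 over the control pulse (adjusted p = 0.00144) and was 0.887 ± 0.0359 CPM in early libraries of 96 h against 0.102 ± 0.127 CPM in controls (log2 fold change 2.85 ± 0.48, adjusted p = 5.69e-05). Irs2 over the control pulse passed with a change of -0.36 ± 0.15 (adjusted p = 0.0439), a call lost under 8 of 16 alternatives. Among them were limma-trend on log2(FPKM + 1) (adjusted p = 0.205) and the fit without control replicate 3 of 48 h (adjusted p = 0.247).

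The receptors that act on IRS proteins were expressed throughout. Igf1r fell by 0.96 ± 0.09 with the early pulse (adjusted p = 1.28e-07), and Insr, the insulin receptor, by 0.47 ± 0.07 (adjusted p = 3.62e-05). Over the control pulse Igf1r fell by 0.32 ± 0.09 (adjusted p = 0.00485) and Insr rose by 0.44 ± 0.07 (adjusted p = 2.59e-05). Igf1r thus fell with both pulses, and Insr moved in opposite directions. Ins1 and Ins2, the insulin genes, had 0 counts in every library, and Igf1 did not pass the filter. Igf2, a fetal growth factor, was at 0.488 ± 0.117 CPM in early libraries of 96 h against 16.3 ± 10.2 CPM in controls (log2 fold change -5.01 ± 0.44, adjusted p = 1.95e-08). Its counts are uncertain, since Igf2 overlaps Gm49394 on the same strand and Igf2os on the other. All 4 tested genes of the 8 listed insulin and IGF ligands and receptors were lower in early libraries of 96 h than in controls.

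Downstream of IRS proteins, 20 genes of PI3 kinase and adaptor signalling were tested. The early pulse left 2 higher and 5 lower, and the control pulse 7 higher and 7 lower, with medians of -0.034 and 0.0072 against 0.02 and 0.01 over all genes. Without the 3 control libraries numbered 3 these counts were 3 higher and 6 lower, and 8 higher and 7 lower. Shc1, an adaptor of receptor tyrosine kinases, fell by 0.51 ± 0.05 with the early pulse (adjusted p = 2.84e-07) and by 0.28 ± 0.05 over the control pulse (adjusted p = 0.000124). At 96 h Shc1 was at 195 ± 5.39 CPM in early libraries against 163 ± 11.7 CPM in controls (log2 fold change 0.255 ± 0.052, adjusted p = 0.000375). Akt1, a kinase activated by PI3 kinase, rose by 1.09 ± 0.06 over the control pulse (adjusted p = 5.03e-11) and was lower in early libraries of 96 h (-0.79 ± 0.06, adjusted p = 2.28e-09). Shc1 therefore had the direction of Irs4 in each of these 3 comparisons, with smaller changes, and Akt1 had the opposite direction in the 2 in which it passed.

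**Figure D3:**
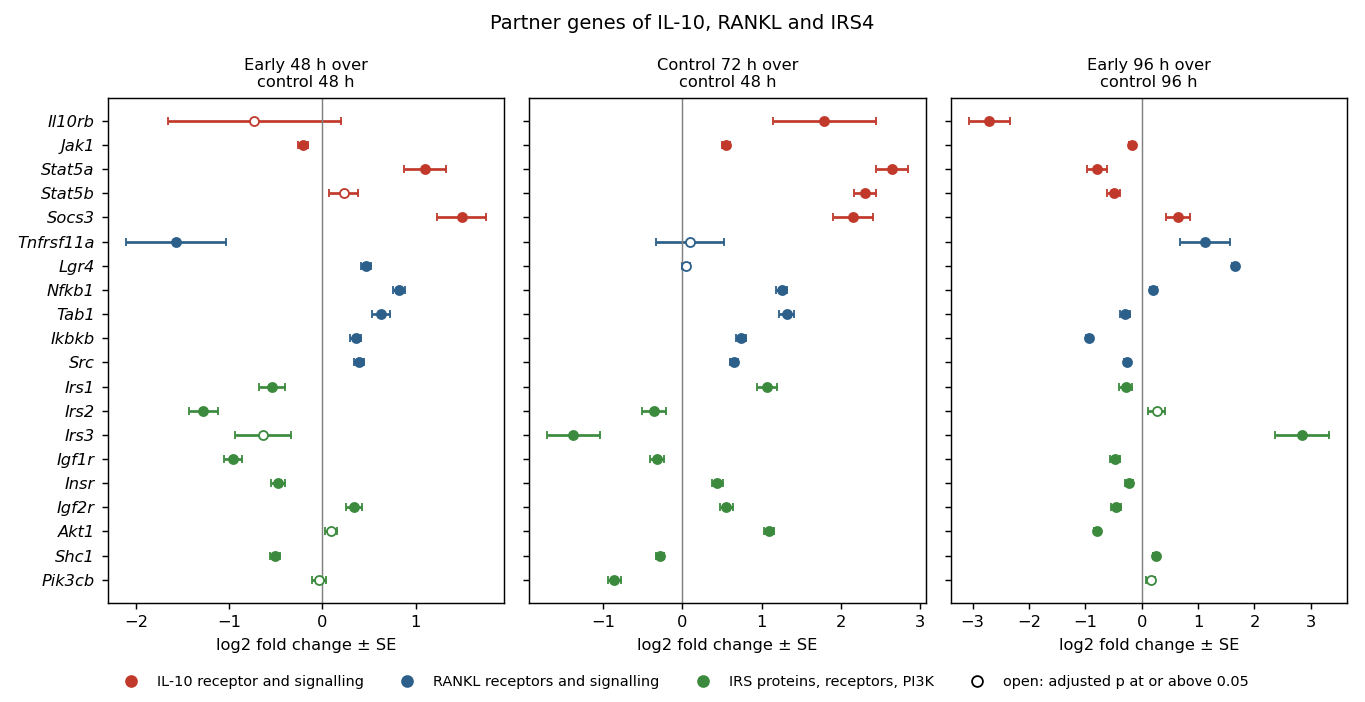
Log2 fold change ± SE (edgeR) of genes of IL-10 receptor signalling (red), RANKL receptors and signalling (blue) and IRS proteins, their receptors and PI3 kinase signalling (green) in 3 comparisons, first group over second. Open points had an adjusted p at or above 0.05. Signalling genes such as Nfkb1, Tab1 and Stat5a lie right of 0 in the first 2 panels, and Lgr4 and Irs3 lie right of 0 in the third.

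Cell types that make these molecules in adults were checked by their markers. Of 9 macrophage and myeloid markers, Lyz2 had 0 counts in every library, Csf1r was at most at 0.0406 CPM and Ptprc was at most at 0.321 CPM. The summed level of the 9 was 17.1 to 19.2 CPM in early libraries of 48 h, against 13.8 to 17.2 CPM in controls of that age, most of it from Cd68, a lysosomal gene, at 13.8 and 10.1 CPM. Of 10 lymphoid markers, Cd3g, Il7r and Ms4a1 had 0 counts in every library, and the 10 summed to 3.26 to 3.82 CPM in early libraries of 48 h, against 5.25 to 8.14 CPM in controls. Defining markers of immune cells were therefore at or near 0. Osteoblast, stromal and fibroblast markers summed to 10.6 to 12.3 CPM in early libraries of 48 h, against 25.4 to 29.6 CPM in controls of that age, and to 14.8 to 17.0 CPM in early libraries of 96 h, against 66.4 to 147 CPM in controls. These sums were highest in control libraries of 96 h, where Tnfsf11 was low. The osteoblast markers Runx2 and Sp7, named here after their values were seen, were at most at 0.125 and 0.496 CPM in any library. Of the 10 osteoblast, stromal and fibroblast markers 6 were tested. With the early pulse 4 were lower and 0 higher by edgeR's test (median -1.38, against 0.02 over all genes), the direction of Tnfsf11, and 1 was higher at an unadjusted p under 0.05 and by DESeq2. With the control pulse 3 were lower and 0 higher (median -0.18, against 0.01), with 0 higher at an unadjusted p under 0.05 or by DESeq2, and 2 were lower and 2 higher without the 3 control libraries numbered 3. Dcn, which encodes the matrix proteoglycan decorin, was at 0.720 CPM in early libraries of 48 h and 0.336 CPM in control libraries of 72 h, against 6.55 CPM in untreated controls (log2 fold change -3.18 ± 0.28, adjusted p = 1.28e-07, and -4.25 ± 0.32, adjusted p = 8.17e-09). The part of these markers in the level of Tnfsf11 was not tested.

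The summed level of pluripotent epiblast markers ran in the same order of groups as the mean of Il10. All 12 markers were tested, and 4 were higher and 6 lower after the early pulse, and 2 higher and 8 lower after the control pulse. At 96 h 10 were higher and 0 lower in early libraries, with a median of 2.93 against -0.01 over all genes, and 0 were lower by edgeR's unadjusted p under 0.05 or by DESeq2. These counts were also 10 and 0 without the 3 control libraries numbered 3. Their summed level was 4095 to 4214 CPM in early libraries of 48 h, against 6849 to 7338 CPM in untreated controls. At 72 h it was 4590 to 4623 CPM in early libraries, against 2589 to 3032 CPM in controls, and at 96 h 3622 to 3750 CPM in early libraries, against 626 to 904 CPM in controls. No marker of the 12 was at 0 in any group, and their part in the levels of Il10, Tnfsf11 and Irs4 was not tested. Pou3f1, a factor of the formative epiblast, was at 36.2 ± 5.02 CPM in early libraries of 48 h against 281 ± 6.09 CPM in controls (log2 fold change -2.96 ± 0.09, adjusted p = 5.23e-14). Other markers, named here after their values were seen, did not fall with this pulse. Pou5f1 was at 1300, 1303 and 1309 CPM against 1277, 1278 and 1210, and Sox2 at 217.9, 195.6 and 252.3 against 189.5, 176.7 and 159.8. In control libraries of 72 h Pou5f1 was at 1369, 1360 and 1297 CPM, and Sox2 at 28.46, 29.86 and 61.15 CPM.

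Across the 18 libraries, log2 CPM correlated with a Pearson r of 0.947 between Il10 and Irs4, 0.932 between Il10 and Tnfsf11, and 0.896 between Tnfsf11 and Irs4. The libraries share group, age and arm, so these values mostly describe 6 group means and carry no p. Other genes were closer to each member than the members were to each other, with 328 genes above 0.9 for Il10, 169 for Tnfsf11 and 161 for Irs4.

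The gene most like Irs4 was Slc35d3, a transporter of the nucleotide-sugar family, with r = 0.982. It was at 4.797 CPM in early libraries of 48 h, 10.6 in those of 72 h and 7.03 in those of 96 h, against 48.7, 2.66 and 0.837 CPM in controls of the same ages. Its size of change was also close to that of Irs4, with -3.34 ± 0.12 after the early pulse and -4.18 ± 0.13 after the control pulse. The next 4 were Klhdc3, Pak3, Prss8 and Arhgap29, at r = 0.971 to 0.978. The 5 most like Il10 were G3bp2 (r = 0.985), Rhebl1, Rasgrp2, Fam3c and Abcg1 (r = 0.976). Of these, Abcg1, a cholesterol exporter, had the steepest course, at 10.7 CPM in early libraries of 48 h against 68.5 CPM in controls. The 5 most like Tnfsf11 were Bcar1 (r = 0.980), Usf1, Pgam1, Rhebl1 and Gcnt2 (r = 0.968). These shared the order of groups with Tnfsf11 more than the size of change: the glycolytic gene Pgam1 was at 217 CPM in early libraries of 48 h against 244 CPM in controls. The lists depended on the measure, since 2, 1 and 0 of the 5 genes for Il10, Tnfsf11 and Irs4 were among the first 5 by group means, and 1, 0 and 2 by log2(FPKM + 1).

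**Figure D4:**
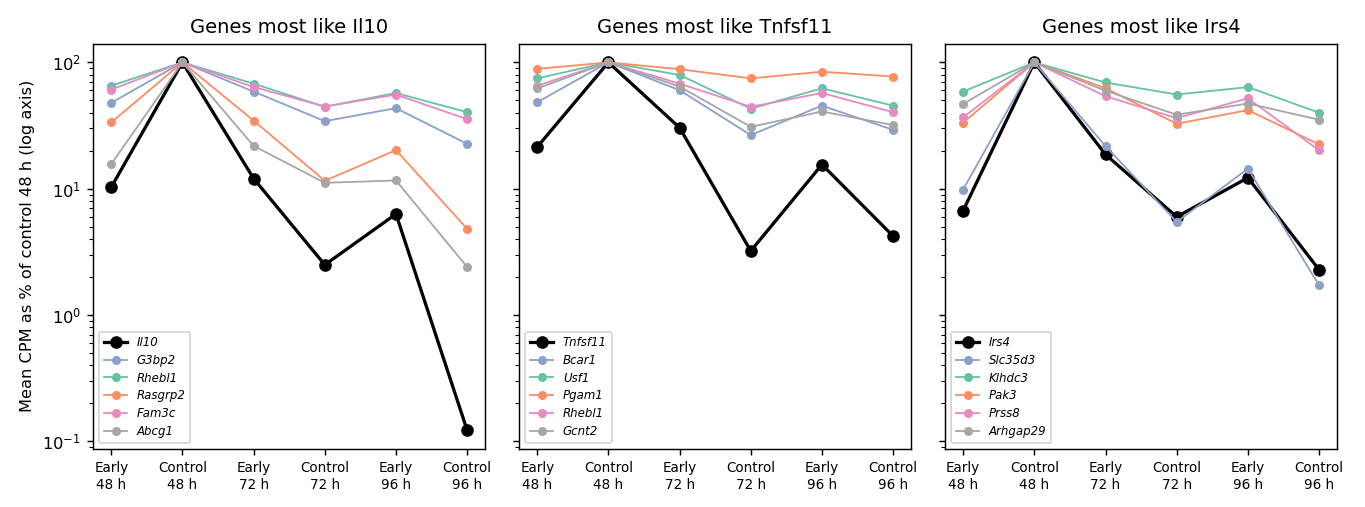
Mean CPM of each gene (black) and of the 5 genes of most similar profile (colours), as a percent of the untreated control group of 48 h on a log axis, in 6 groups with early left of control at each age. Lines join the groups to guide the eye. Slc35d3 runs close to Irs4, and the genes most like Tnfsf11 change less than Tnfsf11 does.

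Protein-coding neighbours within 250 kb moved in both directions relative to the 3 genes. Mapkapk2, a kinase gene 28.7 kb from Il10, was at 35.1 CPM in early libraries of 96 h against 95.8 CPM in controls (log2 fold change -1.45 ± 0.11, adjusted p = 3.87e-09), the opposite direction to Il10. Rassf5, 151 kb from Il10, fell over the control pulse by 1.84 (adjusted p = 0.000144). Eif2d, which encodes a translation factor 128 kb from Il10, was slightly higher in early libraries of 96 h (0.16 ± 0.04, adjusted p = 0.00436), the direction of Il10. Dyrk3, a kinase gene 102.5 kb from Il10, fell over the control pulse (-0.48 ± 0.08, adjusted p = 4.49e-05) and was higher in early than in control libraries of 72 h (0.39 ± 0.08, adjusted p = 0.00065), both in the direction of Il10. With the early pulse Dyrk3 was higher (0.25 ± 0.08, adjusted p = 0.0151), a call lost under 5 of 16 alternatives. It was lost without control replicate 3 of 48 h (adjusted p = 0.0753) and without early replicate 3 of 48 h (adjusted p = 0.0539). On FPKM by limma-trend it was lost as well (adjusted p = 0.085 to 0.151). Ikbke, a kinase gene 229 kb from Il10, was lower in early libraries of 96 h (-1.46 ± 0.33, adjusted p = 0.000892). Next to Irs4, the collagen IV genes Col4a5 (21.8 kb away) and Col4a6 (237 kb) were at 4.20 and 3.18 CPM in early libraries of 96 h against 25.3 and 18.1 CPM in controls (log2 fold changes -2.58 ± 0.35, adjusted p = 5.29e-06, and -2.48 ± 0.41, adjusted p = 4.02e-05). Akap11, 184 kb from Tnfsf11, was lower in early libraries of 96 h by a small amount (-0.55 ± 0.09, adjusted p = 5.71e-05). At 96 h Rassf5 did not pass (-0.54 ± 0.33, adjusted p = 0.171), and neither did Dyrk3 (0.11 ± 0.08, adjusted p = 0.281). Of the 8 tested neighbours, 5 were thus lower and 1 higher in early libraries of 96 h, against 29.6% and 29.5% of all genes, while each of the 3 members was higher.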

How the data were processed

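PolyA RNA of mouse gastruloids was measured in 18 libraries, 3 in each of 6 groups. The authors trimmed reads with cutadapt 4.0, aligned them with STAR 2.7.8a to mm10 and ran Cufflinks 2.2.1, per the submitters' processing notes. Per the labels' protocols, the library kit was stranded. The authors deposited raw counts for 55385 genes. They also deposited FPKM for 55468 genes. Neither the counting tool nor its strand setting is given in the sources used here. Groups were taken from treatment and age labels, columns were matched to samples by their descriptions, and 0 sample columns were left unused.

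Counts were filtered (filterByExpr), scaled by TMM and fitted in a single quasi-likelihood model, with a coefficient for each group (R 4.3.3 with edgeR 4.0.16). Tests were 2-sided and adjusted by Benjamini-Hochberg over 16041 genes, with a call at an adjusted p under 0.05. The SE is the log2 fold change divided by the square root of F. CPM use TMM-scaled library sizes. Scaled count ratios have exact 95% intervals, and the floor is 3 counts over a group. The fitting was tested on simulated data. Likeness is Pearson r of log2 CPM with a prior count of 2. Gene coordinates are those of GENCODE M21. Descriptive tables used pandas 2.3.3 and scipy 1.17.1 in Python 3.11.15, and plots matplotlib 3.10.9.

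The 3 genes, the 16 gene lists, the tests and the alternatives were chosen with earlier results of these data known. Genes were named by rule: receptors, ligands and substrates of the 3 proteins, up to 4 genes per list with the lowest adjusted p over a pulse, the 5 genes of highest r to each member, protein-coding genes within 250 kb, and the neighbours in the order of falls. A further gene is not reported here. The alternatives comprised DESeq2 size factors, 2 other filters, the Wald test of DESeq2 1.42.0, a fit restricted to the compared groups, a replicate block, limma-trend (limma 3.58.1) on log2 FPKM with pseudocounts of 1 and 0.1, and each library left out in turn. Leaving out the 3 control libraries numbered 3 and comparing early libraries of 72 h with control libraries of 96 h were added after the data were seen. Replicate numbers were checked for pairing.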

Additional observations from a re-analysis of the deposited data

Results flagged for a closer look

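Irs4 moved in opposite directions over the day after the pulse. The log2 step was 1.47 from 48 to 72 h in the early arm and -1.41 from 72 to 96 h in the control arm, a difference of 2.87 on the log2 scale, early minus control. All 3 early libraries lay above those of the day before, and all 3 control libraries lay below those of the day before. Of 16041 tested genes, 6837 were called over the early step and 8802 over the control step, in either direction. The difference was not tested, since the groups include those by which Irs4 was chosen, and the 2 steps also differ in age.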

How the results depend on the processing

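The 9 tested results of the 3 genes kept their direction under every alternative that was run, and 8 of 9 stayed called under all of them. The fall of Il10 from 72 to 96 h in the early arm did not pass without early replicate 2 of 72 h (-0.813, adjusted p = 0.051), and its values without 1 library ranged from -1.07 to -0.80. Tnfsf11 in control libraries of 96 h over those of 72 h turned from 0.325 to -0.0864 without the 3 control libraries numbered 3, and the cause was not tested. On log2(FPKM + 1), which compresses low levels, early over control at 96 h was 0.43 for Il10, 0.51 for Tnfsf11 and 0.89 for Irs4, and all 3 were still called. Counts of called genes stayed within 1.5 times under every alternative.

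Correlations by replicate number were low: deviations of same-numbered libraries correlated from -0.06 to 0.158 (median 0.024). Those of different-numbered libraries ran from -0.189 to 0.134 (median -0.008). Within the control arm every same-numbered pair was above 0, with medians of 0.022, 0.087 and 0.094 for numbers 1, 2 and 3. A shared source of same-numbered control libraries was not tested. With a replicate block the calls from 72 to 96 h in the early arm numbered 5954 instead of 5656, and early against control at 96 h 9668 instead of 9482. No tested call of the 3 genes changed with the block.

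Of 504 calls of other genes in the 9 comparisons, 398 held under every alternative run and 106 were lost under at least 1. Il10 at 96 h rests on 39 counts against 1, so the size of its difference is known only within the counting interval, and Il10ra, Tnfrsf11b and Igf1 were too low to test. Intervals cover counting error only, since reads without molecular identifiers are not independent molecules.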
